A study of Mus musculus with 10 samples.

Results

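The genes described here are 8 effectors and feedback genes of the Notch pathway, Hes1, Hes5, Hes6, Hey1, Hey2, Heyl, Nrarp and Rbpj, taken by gene symbol and followed across all libraries. They are 8 of the 53801 genes in the deposited table. The study sequenced bulk RNA from cells of the mouse dorsal brain that flow cytometry had separated into NG2+ and GFAP+ populations. Both groups were wild type (WT), received, at embryonic day 12, in utero electroporation (IUE) with StarTrack, a set of reporter plasmids for following the progeny of electroporated progenitors, and were sorted at embryonic day 14. There were 5 NG2 and 5 GFAP libraries, and the labels place all 10 in batch 1 and call both groups neural stem cells. The labels do not say whether the libraries of a group came from separate embryos or pools, so the p-values measure only the spread between these libraries. The sources used here do not state how a cell was called NG2+ or GFAP+ or which promoter drove the reporter.

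Notch receptors are cut on contact with a ligand on a neighbouring cell, and the freed intracellular domain joins the DNA-binding protein RBPJ to switch on target genes. In the ventricular zone of the embryonic brain the best known targets are the Hes and Hey genes, which encode basic helix-loop-helix repressors that hold back proneural genes and keep radial glia undifferentiated. Cells that leave the progenitor state display Notch ligands and lose Hes1 and Hes5.

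Library totals ranged from 12945436 to 17569730 counts. NG2 replicate 5 had reads for 18903 genes, against 22988 to 24444 genes in the other 9 libraries, and GFAP replicate 2 was the highest of the 10 libraries for 5 of the 8 genes. Some estimates are therefore also given without these libraries. Cspg4, which encodes NG2, was higher in the NG2 libraries, with a log2 fold change of 2.64 and an adjusted p of 0.00256 (edgeR's quasi-likelihood test with Benjamini-Hochberg adjustment). Its level was low in both groups, at 79 to 118 reads per NG2 library and 11 to 22 reads per GFAP library. The labelled cell type was checked against 8 radial glia markers (Sox2, Pax6, Vim, Nes, Fabp7, Slc1a3, Hopx, Sox9), which were detected in both groups and summed to 920.4 to 1623 CPM in NG2 and 1452 to 2069 CPM in GFAP libraries. CPM are counts divided by the effective library size that TMM gives. Transcripts of 6 neuronal genes (Tubb3, Dcx, Neurod6, Stmn2, Map2, Rbfox3) summed to 4363 to 6139.7 CPM in NG2 and 3613 to 4698 CPM in GFAP libraries, so neuronal transcripts were present in every library.

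No member of the set passed the threshold of 0.05 on the adjusted p. Hey1, Hes5, Hes1 and Nrarp had the largest negative estimates, Hes6 and Rbpj lay close to 0, and Hey2 and Heyl were detected at 3 to 50 reads per library. In edgeR's test 0 of the 8 genes were called, where 0.148% of the 16187 genes tested were called in either direction and 0.0741% were called lower in NG2. At an unadjusted p under 0.05 stood 2 of the 8, Hey1 and Hes5, where 12.8% of all genes tested did so and 6.33% were on the lower side. DESeq2's Wald test called 0 of the 8, with 2.61% of genes called, and voom with sample weights called 1, Hey1, with 8.90% called. Without an expression filter 0 of the 8 were called by edgeR, with 0.305% of genes called, and without NG2 replicate 5 again 0, with 0.710% called. The log2 fold change, NG2 over GFAP, was negative for 6 of the 8 genes and positive for 2, with a median of -0.20. Over all genes tested, 51.5% were negative and the median was -0.00971. In bulk RNA, fewer cells of a type and less RNA per cell cannot be told apart.

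**Figure D1:**
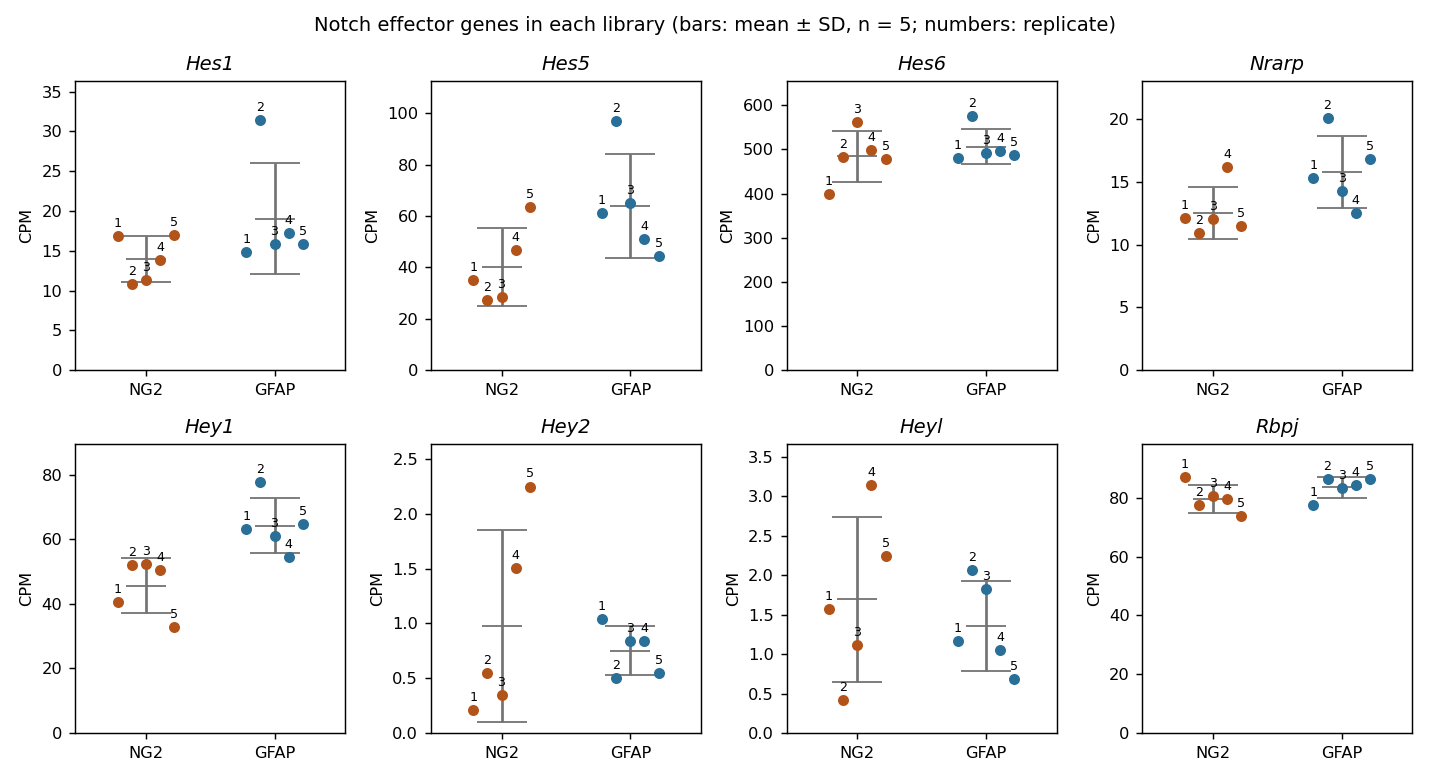
CPM of each of the 8 genes in every NG2 (left) and GFAP (right) library, with the replicate number above each point and the mean ± SD of 5 libraries in grey. Hey1 is the gene whose groups do not overlap, and GFAP replicate 2 is the highest point for Hes1, Hes5, Hes6, Hey1 and Nrarp.

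Levels were compared between genes per unit of deposited gene length, which need not be the length of 1 transcript. On the deposited FPKM scale (reads scaled by gene length and library depth), Hes6 was highest, with a median over 10 libraries of 268 FPKM and a range of 221 to 315 FPKM. Hes5 followed at a median of 35.6 FPKM (20.1 to 70.3 FPKM), Hey1 at 16.2 FPKM (9.93 to 23.6 FPKM) and Hes1 at 7.70 FPKM (5.29 to 15.2 FPKM). Rbpj had a median of 6.37 FPKM (5.72 to 6.82 FPKM) and Nrarp of 5.14 FPKM (4.22 to 7.70 FPKM). The deposited length of Rbpj, 12750 bases, was the longest of the 8, so its place depends on that length. By mean CPM over all libraries, Rbpj (81.6 CPM) stood above Hey1 (54.9 CPM), Hes5 (52.0 CPM) and Hes1 (16.5 CPM). Heyl and Hey2 were lowest, at medians of 0.264 FPKM (0.0805 to 0.608 FPKM) and 0.150 FPKM (0.0445 to 0.485 FPKM). The ranges were separate at only 2 steps of this order, Hes6 above Hes5 and Nrarp above Heyl. Within single libraries, Hes5 was above Hey1 and Hey1 above Hes1 in 10 of 10, while Hes1 over Rbpj, Rbpj over Nrarp and Heyl over Hey2 held in 8 of 10 each, so those 3 neighbouring pairs were not apart beyond their spread.

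**Figure D2:**
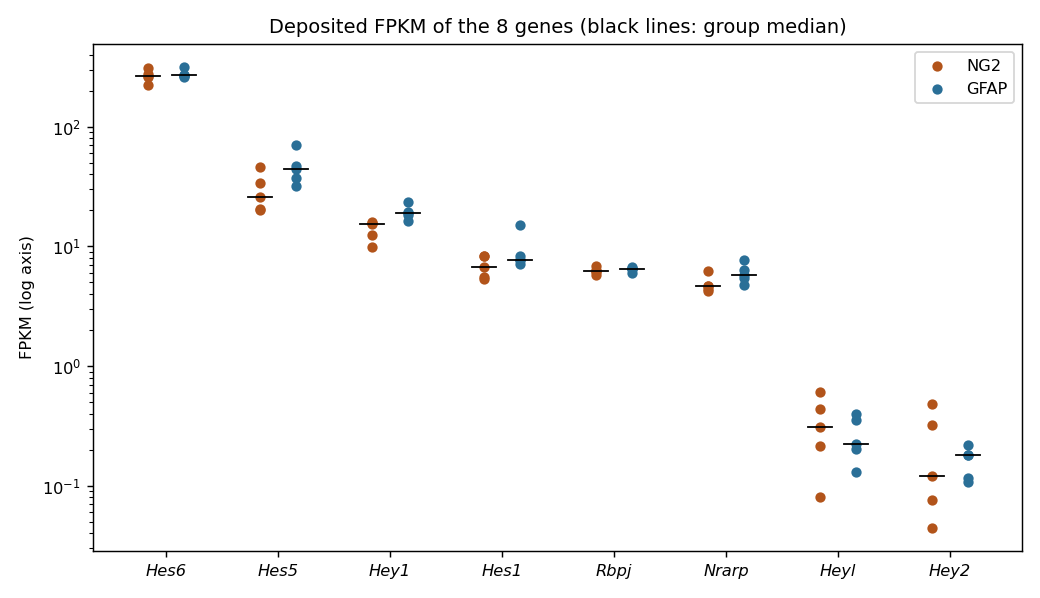
Deposited FPKM of the 8 genes on a log axis, ordered by their median over all 10 libraries, with 1 point per NG2 (left) and GFAP (right) library and a black line at the group median. Hes6 is above every other gene in all libraries, and Heyl and Hey2 lie below 1 FPKM.

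Hes1 and Hes5 are the canonical RBPJ targets of cortical progenitors in the mouse, where their combined loss leads to early differentiation. Hes1 (ENSMUSG00000022528, chr16:30064384-30067796 on GRCm38, plus strand) had 16.9, 10.8, 11.3, 13.9 and 17.0 CPM in NG2 replicates 1 to 5, against 14.8, 31.4, 15.9, 17.2 and 15.9 CPM in GFAP replicates 1 to 5. NG2 replicates 2 to 4 were below every GFAP library, NG2 replicates 1 and 5 lay inside the GFAP range, and GFAP replicate 2 stood far above all others. The means were 13.96 ± 2.96 CPM in NG2 and 19.0 ± 6.97 CPM in GFAP (SD, n = 5 each), and the log2 fold change was -0.45 (SE 0.22, 95% interval -0.92 to 0.02, edgeR adjusted p = 0.415). Without GFAP replicate 2 the estimate was -0.19 (edgeR adjusted p = 0.656).

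Hes5 (ENSMUSG00000048001, chr4:154960923-154962371, plus strand) had 35.1, 27.5, 28.3, 46.8 and 63.6 CPM in NG2 replicates 1 to 5, against 61.1, 96.9, 65.1, 51.2 and 44.5 CPM in GFAP replicates 1 to 5. NG2 replicates 1 to 3 were below all GFAP libraries, NG2 replicates 4 and 5 overlapped them, and the highest value was again that of GFAP replicate 2. The means were 40.3 ± 15.1 CPM in NG2 and 63.8 ± 20.2 CPM in GFAP (SD, n = 5 each), a ratio of 0.632. The log2 fold change was -0.66 (SE 0.24, 95% interval -1.17 to -0.15), with an unadjusted p of 0.0151 and an adjusted p of 0.292 by edgeR's quasi-likelihood test. Without GFAP replicate 2 and NG2 replicate 5 together it was -0.69 and passed, at an edgeR adjusted p of 0.0484, in a fit that called 1.61% of the genes tested, and without NG2 replicate 5 alone it was -0.88 at 0.0613. Without GFAP replicate 2 alone it was -0.46 at an edgeR adjusted p of 0.390. Hes5 overlaps 1 annotated transcript on the other strand, Gm20421, and the sources used here do not state whether counting used strand. How reads over the shared stretch were assigned is therefore not known.

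The sequence just before the start of these genes was looked at because RBPJ reaches its targets through a short core motif, TGGGAA, which reads TTCCCA on the other strand. RefSeq promoter windows on GRCm38.p6 were available for 5 of the 8 genes, Hes5, Hes6, Hey2, Nrarp and Rbpj. Printed below, 5′ to 3′ on the gene's strand and with the core motif in capitals, are the windows of Hes5 (chr4:154960673-154960922, plus strand) and of Hey2 (chr10:30842802-30843033, minus strand), which hold the motif, and of Nrarp (chr2:25180508-25180757, plus strand) and Hes6 (chr1:91414039-91414288, minus strand), which do not. They run up to the base before the deposited gene start, and Hey2's is 18 bases shorter than the other windows because its RefSeq start lies inside the deposited gene.
Hes5: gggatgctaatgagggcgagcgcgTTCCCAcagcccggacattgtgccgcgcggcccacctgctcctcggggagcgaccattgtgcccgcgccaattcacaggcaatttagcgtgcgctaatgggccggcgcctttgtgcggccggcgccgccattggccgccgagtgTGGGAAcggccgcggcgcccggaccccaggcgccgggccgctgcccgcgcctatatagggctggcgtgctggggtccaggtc
Hey2: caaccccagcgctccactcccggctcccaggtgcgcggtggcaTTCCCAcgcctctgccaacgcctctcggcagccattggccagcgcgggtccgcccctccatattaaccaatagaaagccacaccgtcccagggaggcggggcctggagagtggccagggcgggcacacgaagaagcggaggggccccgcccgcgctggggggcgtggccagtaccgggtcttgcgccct
Nrarp: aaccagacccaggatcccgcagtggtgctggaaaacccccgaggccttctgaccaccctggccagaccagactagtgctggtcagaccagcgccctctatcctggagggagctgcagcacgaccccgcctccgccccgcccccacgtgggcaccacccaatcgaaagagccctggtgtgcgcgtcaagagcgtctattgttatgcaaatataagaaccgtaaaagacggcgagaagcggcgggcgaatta
Hes6: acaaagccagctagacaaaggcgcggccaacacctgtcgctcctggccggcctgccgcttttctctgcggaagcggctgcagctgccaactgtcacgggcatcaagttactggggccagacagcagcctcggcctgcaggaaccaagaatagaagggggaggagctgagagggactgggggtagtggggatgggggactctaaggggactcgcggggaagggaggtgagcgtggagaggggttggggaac

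The Hes5 window holds 2 cores, the first at -226 on the reverse strand and the second at -82 on the forward strand, with positions given for the leftmost base and -1 as the base before the RefSeq start. Hey2 has 1 core at -207 on the reverse strand. Rbpj's windows start inside its deposited gene and are not printed, and they hold cores at -149 and -65. In 32851 RefSeq windows of 250 bases, 21.6% held at least 1 such core on either strand and 2.77% held 2 or more. Hes and Hey proteins themselves bind E boxes (CACGTG), class C sites (CACGCG) and N boxes (CACNAG), searched on both strands. Nrarp's window holds an E box at -108, which 6.02% of all windows had, and N boxes at -179 and -79, which 36.7% had at least once and 8.18% had 2 or more times. Another Hes6 window, which starts inside its deposited gene and is not printed, holds an N box at -237. Class C sites were in 7.62% of all windows and in none of the matched members' windows. These matches are letters in a window and no measurement of binding.

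Hes6 works against the other Hes proteins in the mouse: it counteracts Hes1 and promotes neuronal differentiation, and its transcription is driven by proneural factors more than by Notch. Hes6 (ENSMUSG00000067071, chr1:91411483-91414038, minus strand) had 399, 483, 563, 498 and 478 CPM in NG2 replicates 1 to 5, against 481, 576, 491, 497 and 487 CPM in GFAP replicates 1 to 5. NG2 replicate 1 was the lowest, GFAP replicate 2 and NG2 replicate 3 were the highest, and the remaining libraries of both groups lay among each other. The means were 484 ± 58.4 CPM in NG2 and 506 ± 39.4 CPM in GFAP (SD, n = 5 each). With a log2 fold change of -0.06 (SE 0.10, edgeR adjusted p = 0.830), the 95% interval of -0.28 to 0.15 is narrower than that of any other Hes or Hey gene.

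Hes5 and Hes6, the repressor and its antagonist, were also set against each other within each library. The Hes5 to Hes6 ratio on the FPKM scale was 0.117, 0.0756, 0.0667, 0.125 and 0.177 in NG2 replicates 1 to 5, against 0.169, 0.223, 0.176, 0.137 and 0.121 in GFAP replicates 1 to 5. NG2 replicates 1 to 3 were below all GFAP libraries, NG2 replicate 4 was inside their range, and NG2 replicate 5 was above 4 of the 5. The mean ratio was 0.112 ± 0.0439 in NG2 and 0.165 ± 0.0395 in GFAP (SD, n = 5 each), given as a description.

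Hey1 and Hey2 are both known from the ventricular zone of the embryonic mouse brain, where forced expression of either keeps progenitors from becoming neurons. Hey1 (ENSMUSG00000040289, chr3:8663359-8667256, minus strand) had 40.6, 51.9, 52.4, 50.3 and 32.8 CPM in NG2 replicates 1 to 5, against 63.1, 77.7, 60.9, 54.4 and 64.7 CPM in GFAP replicates 1 to 5. All NG2 libraries were below all GFAP libraries, with NG2 replicate 3 and GFAP replicate 4 closest to each other. Hey1 was the only one of the 8 genes whose groups did not overlap, which 3.28% of all genes tested did and 1.76% with NG2 lower. The means were 45.6 ± 8.63 CPM in NG2 and 64.2 ± 8.53 CPM in GFAP (SD, n = 5 each), a ratio of 0.710.

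The log2 fold change of Hey1 was -0.49 (SE 0.14, 95% interval -0.79 to -0.20), with an unadjusted p of 0.00308 and an adjusted p of 0.181 in edgeR's quasi-likelihood test. In the authors' deposited table it was -0.48 with an adjusted p of 0.0548, which was the lowest adjusted p of the 8 genes there, none of which reached 0.05. That table called 1.16% of the 28533 genes with a p-value. With voom and sample weights Hey1 passed, at a log2 fold change of -0.32 and an adjusted p of 0.0356. Without GFAP replicate 2 and NG2 replicate 5 together its estimate was also -0.32, at an edgeR adjusted p of 0.112. Without NG2 replicate 5 alone it was -0.39 (edgeR adjusted p = 0.119), and without GFAP replicate 2 alone it was -0.41 (edgeR adjusted p = 0.234).

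Hey2 and Heyl are also known from blood vessels, Hey2 in arterial endothelium and Heyl in mural cells, and both had few reads. Hey2 (ENSMUSG00000019789, chr10:30832359-30842801, minus strand) had 3, 8, 5, 24 and 40 reads in NG2 replicates 1 to 5, against 17, 8, 11, 12 and 8 reads in GFAP replicates 1 to 5. The NG2 libraries lay on both sides of the GFAP libraries, replicates 4 and 5 above and replicates 1 and 3 below. Its log2 fold change of 0.39 (SE 0.59, 95% interval -0.88 to 1.65, edgeR adjusted p = 0.830) had the opposite sign, -0.18, without NG2 replicate 5.

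Heyl (ENSMUSG00000032744, chr4:123233556-123249875, plus strand) had 23, 6, 16, 50 and 40 reads in NG2 replicates 1 to 5, against 19, 33, 24, 15 and 10 reads in GFAP replicates 1 to 5. Here too NG2 replicates 4 and 5 were highest and NG2 replicate 2 lowest. The log2 fold change was 0.33 (SE 0.49, 95% interval -0.73 to 1.38, edgeR adjusted p = 0.827), and -0.01 without NG2 replicate 4.

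Endothelial markers (Pecam1, Cdh5, Cldn5, Kdr, Tek, Flt1) summed to 7.37, 12.6, 4.10, 18.0 and 0.113 CPM in NG2 replicates 1 to 5 and to 21.8, 7.35, 6.68, 6.23 and 2.66 CPM in GFAP replicates 1 to 5, with Cdh5 and Tek under 1 CPM on average. The library highest in Hey2, NG2 replicate 5, was the lowest in these markers, and it had reads for the fewest genes, 18903. The libraries next in Hey2, NG2 replicate 4 and GFAP replicate 1, had the highest endothelial sums, 18.0 and 21.8 CPM. Mural markers (Pdgfrb, Rgs5, Kcnj8, Abcc9, Acta2, Notch3) summed to 21.5, 10.3, 11.9, 28.5 and 27.0 CPM in NG2 replicates 1 to 5 and to 28.8, 28.1, 26.1, 20.9 and 16.5 CPM in GFAP replicates 1 to 5, with Abcc9 and Acta2 under 1 CPM on average. Of each list 4 of 6 markers were tested and none were called, and their part in the Hey2 and Heyl reads was not tested.

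Nrarp encodes an ankyrin repeat protein that is induced by Notch and destabilises the receptor's intracellular domain, a negative feedback on the pathway. Nrarp (ENSMUSG00000078202, chr2:25180758-25183339, plus strand) had 12.1, 10.9, 12.03, 16.2 and 11.5 CPM in NG2 replicates 1 to 5, against 15.3, 20.1, 14.3, 12.5 and 16.8 CPM in GFAP replicates 1 to 5. NG2 replicates 1, 2, 3 and 5 were below all GFAP libraries, and NG2 replicate 4 lay inside the GFAP range. The means were 12.6 ± 2.11 CPM in NG2 and 15.8 ± 2.85 CPM in GFAP (SD, n = 5 each), with a log2 fold change of -0.33 (SE 0.17, 95% interval -0.69 to 0.02, edgeR adjusted p = 0.420). With voom and sample weights the estimate was 0.02, and without GFAP replicate 2 and NG2 replicate 5 together it was -0.20. Without GFAP replicate 2 alone it was -0.23. Nrarp overlaps the antisense transcript Gm38287.

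Rbpj encodes the DNA-binding partner of the Notch intracellular domain, which is present whether or not the pathway is active. Rbpj (ENSMUSG00000039191, chr5:53466152-53657362, plus strand) had 87.0, 77.7, 80.5, 79.5 and 73.7 CPM in NG2 replicates 1 to 5, against 77.6, 86.5, 83.3, 84.2 and 86.3 CPM in GFAP replicates 1 to 5. NG2 replicate 1 was the highest and NG2 replicate 5 the lowest of all libraries, and the groups overlapped. The means were 79.7 ± 4.83 CPM in NG2 and 83.6 ± 3.61 CPM in GFAP (SD, n = 5 each), and the log2 fold change was -0.07 (SE 0.08, edgeR adjusted p = 0.769). Its 95% interval, -0.25 to 0.11, was the narrowest of the 8 genes, and the estimate was 0.09 after a correction for GC content and length, which moved the median of all genes by 0.08. The antisense transcripts Gm10441 and Gm40304 overlap Rbpj.

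**Figure D3:**
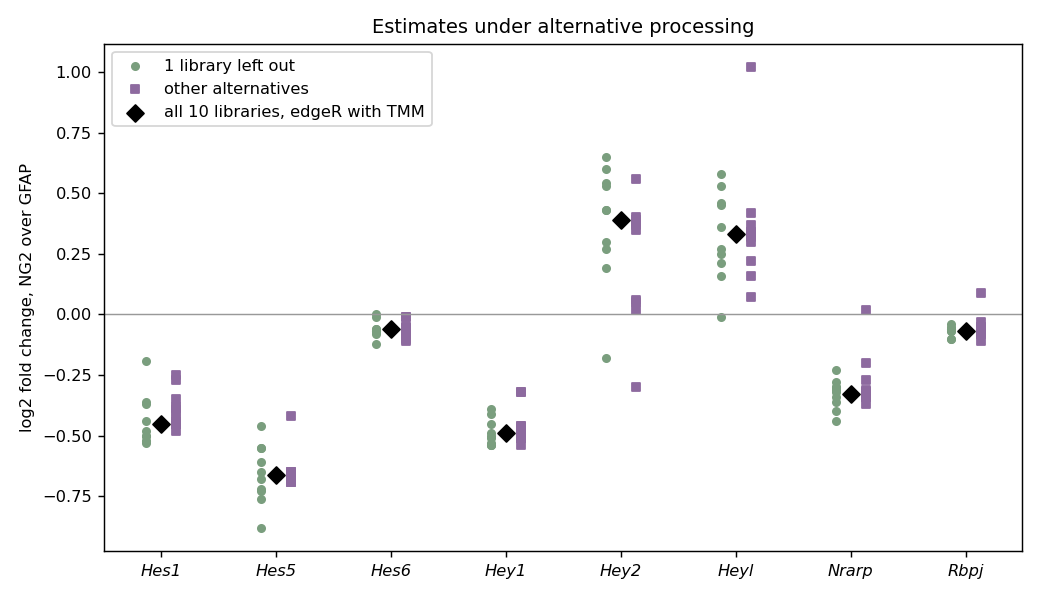
Log2 fold changes (NG2 over GFAP) of the 8 genes in the fit of all 10 libraries (black diamonds), with 1 library left out (green circles) and under the other alternatives (purple squares). Hes1, Hes5, Hes6 and Hey1 keep a negative estimate throughout, Nrarp reaches 0.02 and Rbpj 0.09 in 1 alternative each, and Hey2 and Heyl spread from -0.30 to 0.65 and from -0.01 to 1.02.

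The genes did not all vary between libraries in the same way. GFAP replicate 2 was the highest library for Hes1, Hes5, Hes6, Hey1 and Nrarp, and NG2 replicate 2 was the lowest for Hes1, Hes5, Heyl and Nrarp. Relative to the mean of 10 libraries on the log2(CPM + 1) scale, Hes5 stood at -0.80 in NG2 replicate 2, -0.76 in NG2 replicate 3 and 0.98 in GFAP replicate 2, and Hes1 stood at -0.51, -0.45 and 0.94 in the same libraries. Hey1 had its lowest value, -0.69, in NG2 replicate 5, the library in which Hes5 was above its mean by 0.38 and Hey2 by 0.86. Rbpj stayed within -0.14 and 0.09 in all 10 libraries.

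Radial glia marker sums moved with Hes1 and Hes5 in NG2 replicates 2 and 3 and GFAP replicate 2, but not in every library. In NG2 replicate 1, Hes5 stood at -0.46 and Hey1 at -0.39 on the same scale, with the radial glia sum at 0.14. Fabp7 gave 718 of the 1623 CPM of that sum, its highest value in any library. Sox2 and Slc1a3 were also above their mean CPM over 10 libraries there. Pax6, Vim, Nes, Sox9 and Hopx were below theirs, so the position of this sum rests largely on Fabp7. In NG2 replicate 5, where Hey1 was lowest at -0.69, the radial glia sum stood at 0.09. Radial glia markers summed to 1623, 920.4, 1211, 1515 and 1567 CPM in NG2 replicates 1 to 5, against 1472, 2069, 1572, 1452 and 1605 CPM in GFAP replicates 1 to 5, so they too were lowest in NG2 replicates 2 and 3 and highest in GFAP replicate 2. Of these 8 markers 8 had a negative log2 fold change, 3 stood at an unadjusted p under 0.05 and 0 were called by edgeR, where 51.5% of all genes tested were negative, 12.8% stood at an unadjusted p under 0.05 and 0.148% were called. A list of 10 G1/S genes summed to 1055 to 1475 CPM in NG2 and 1143 to 2240.5 CPM in GFAP libraries, the highest again in GFAP replicate 2, with 10 negative estimates and 0 called. Intermediate progenitor markers (Eomes, Btg2, Neurog2, Insm1, Mfap4, Gadd45g) summed to 1487 to 1680.5 CPM in NG2 and 1729 to 2139.6 CPM in GFAP libraries, without overlap. How often sums of other genes separate in this way was not tested. Of these 6 markers 5 had a negative log2 fold change, 3 stood at an unadjusted p under 0.05 and 0 were called by edgeR. Taken singly, 2 did not overlap, Eomes and Btg2, where 3.28% of all genes tested did not. The sum of the neuronal markers ran the other way in 3 libraries, relative to the mean of 10 libraries on the log2(CPM + 1) scale. It stood at 0.23 in NG2 replicate 2, 0.38 in NG2 replicate 3 and -0.38 in GFAP replicate 2. In the remaining libraries it lay between -0.12 and 0.12, with 0.02 in NG2 replicate 1 and -0.11 in NG2 replicate 5. All 6 neuronal markers had a positive log2 fold change, from 0.01 to 0.62, 2 stood at an unadjusted p under 0.05 and 0 were called by edgeR. The part of these markers in the Hes and Hey differences was not tested.

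**Figure D4:**
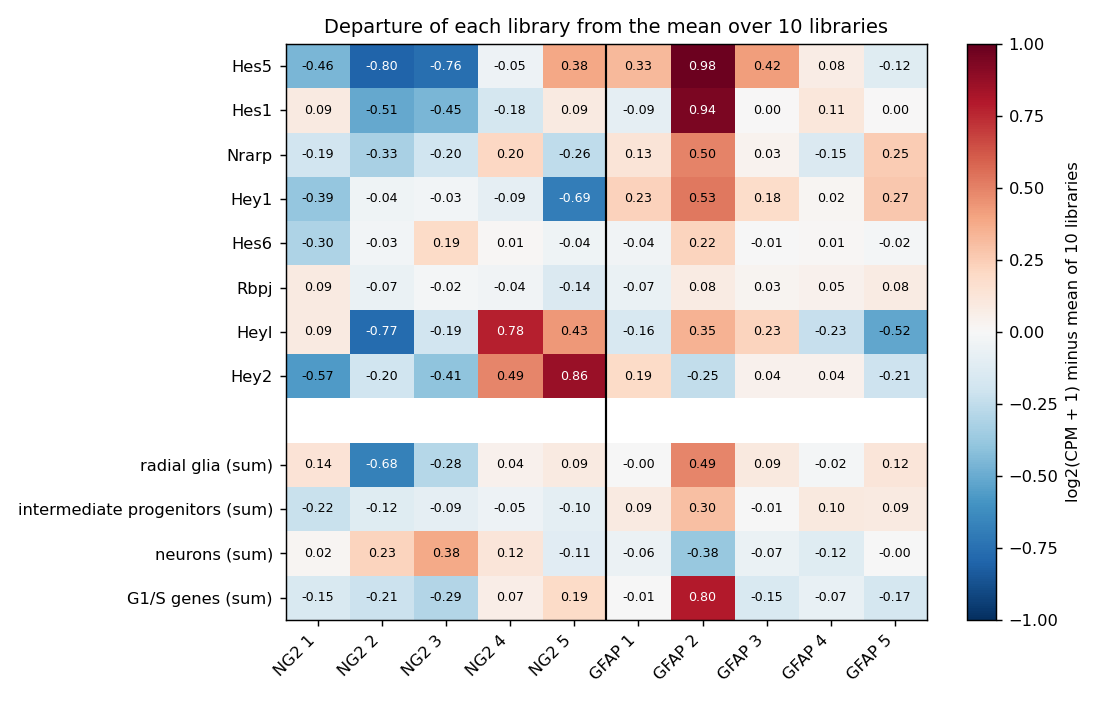
Departure of each library from the mean over 10 libraries on the log2(CPM + 1) scale, for the 8 genes (upper rows) and for the summed CPM of 4 marker lists (lower rows), with NG2 libraries left of the black line and GFAP libraries right of it. Hes5, Hes1 and the radial glia sum are lowest in NG2 replicate 2 and highest in GFAP replicate 2.

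Correlations were computed for all 28 pairs of the 8 genes across the 10 libraries, and 0 of 28 passed a Benjamini-Hochberg threshold of 0.05 by Pearson's r or Spearman's rho. Hes1 and Hes5 had the highest r, 0.83 (permutation p = 0.00252, adjusted 0.0706), with rho 0.71 (permutation p = 0.0269, adjusted 0.252). After subtracting each group's mean r was 0.76, and without NG2 replicate 2 and GFAP replicate 2, the libraries farthest from the median in Hes1, it was 0.57. Hey1 and Nrarp had r = 0.75 (permutation p = 0.0119, adjusted 0.165) and rho = 0.72 (permutation p = 0.0234, adjusted 0.252), with r = 0.57 without NG2 replicate 5 and GFAP replicate 2. Hey2 and Rbpj ran in opposite directions, with r = -0.72 (permutation p = 0.0177, adjusted 0.165) and rho = -0.75 (permutation p = 0.0166, adjusted 0.252). For this pair r was -0.77 after subtracting each group's mean, -0.40 with library size scaling alone and -0.41 without NG2 replicates 4 and 5. Hes5 and Hey1 were the 2 members at an unadjusted edgeR p under 0.05 between groups, and neither was called by edgeR with all 10 libraries. This pair had r = 0.35 (permutation p = 0.317, adjusted 0.519) and rho = 0.38 (permutation p = 0.277, adjusted 0.626). Its r was 0.05 without NG2 replicate 2 and GFAP replicate 2 and -0.24 after subtracting each group's mean.

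For each gene the 3 protein-coding genes with the most similar profile over the 10 libraries were taken from 9241 genes of at least 10 CPM, by Pearson's r of log2(CPM + 1), as a description of libraries that share their depth and composition. For Hes5 these were Tcf7l1, a TCF/LEF family repressor of the Wnt pathway (r = 0.986), Gpi1, a glycolytic enzyme (r = 0.975), and Hdlbp, an RNA-binding protein (r = 0.968). For Hey1 they were Epdr1 (r = 0.963), Orc2, a subunit of the origin recognition complex (r = 0.963), and Car14, a membrane carbonic anhydrase (r = 0.945). Car14 was itself lower in NG2, with a log2 fold change of -0.86 and an edgeR adjusted p of 0.0429. That call did not hold in every fit, as edgeR called 0 genes lower without NG2 replicate 2 or without GFAP replicate 1, 2 or 3. For Hes1 they were Mms22l and Hells, which act in replication fork repair and in chromatin remodelling, and Rcn1 (r = 0.960, 0.957 and 0.953). Without GFAP replicate 2 those 3 values were 0.866, 0.882 and 0.845, while the value for Hes5 with Tcf7l1 was 0.983.

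For Nrarp the closest profiles were those of Cdk2, a kinase of the G1/S transition (r = 0.917), Emx2, a transcription factor of cortical progenitors (r = 0.910), and Suclg2 (r = 0.905). Hes6 was most like Lrrc42 (r = 0.968), Mat2a (r = 0.919) and Tmem126b (r = 0.917). Rbpj was most like Pkn2 (r = 0.923), Snw1 (r = 0.911) and Srpk1 (r = 0.892), and SNW1 is a known co-factor of RBPJ. The sparse Hey2 and Heyl profiles came closest to Mkl1 (r = 0.935) and Agpat1 (r = 0.884). No gene was among the closest 3 of more than 1 of the 8 genes.

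The rest of the pathway was read from lists of 62 other Notch pathway genes, of which 57 reached the expression filter. By edgeR 0 of 57 were called and 11 stood at an unadjusted p under 0.05, against 0.148% and 12.8% of all genes tested. DESeq2 called 3 of them (Dner, Dtx1, Pofut1), with 2.61% of all genes called, and voom called 9, with 8.90% called. Their log2 fold changes were positive for 25 and negative for 32, with a median of -0.05. The groups did not overlap for 4 of the 57, against 3.28% of all genes tested, and these are named after their values were seen: Notch4 and Pofut1 with NG2 lower, and Dner and Dtx1 with NG2 higher.

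Upstream of the 8 genes, all 4 Notch receptors had negative estimates, with a median of -0.49. Notch1 averaged 50.7 ± 18.1 CPM in NG2 and 70.3 ± 7.09 CPM in GFAP (SD, n = 5 each), with a log2 fold change of -0.47 and an edgeR adjusted p of 0.353. It was lowest in NG2 replicates 2 and 3, at 31.5 and 31.3 CPM. The other NG2 libraries had 59.1 to 70.3 CPM, against 60.05 to 75.98 CPM in GFAP. Its estimate was -0.33 with either NG2 replicate 2 or 3 left out. Without NG2 replicate 5 it was -0.61 and without GFAP replicate 2 it was -0.44. Notch2 averaged 16.2 ± 8.11 CPM in NG2 and 25.1 ± 3.35 CPM in GFAP, with a log2 fold change of -0.63 and an edgeR adjusted p of 0.347. Notch2 too was lowest in NG2 replicates 2 and 3, at 7.51 and 10.99 CPM. Its estimate was -0.45 without NG2 replicate 2 and -0.93 without NG2 replicate 1. Of the 7 ligands tested, 3 were positive and 4 negative. Dner, a neuronal transmembrane protein described as an atypical Notch ligand, had 129.6, 161, 135, 134 and 159.5 CPM in NG2 replicates 1 to 5, against 118, 99.1, 85.4, 95.4 and 99.1 CPM in GFAP replicates 1 to 5. Every NG2 library was above every GFAP library. Its log2 fold change was 0.53 (SE 0.10, edgeR adjusted p = 0.0652), and it passed without NG2 replicate 5 (0.50, edgeR adjusted p = 0.0435). With any other single library left out it did not pass, at edgeR adjusted p values up to 0.194. Dll3, a ligand that acts within the cell, had a log2 fold change of -0.32 (edgeR adjusted p = 0.289).

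Of the ligand and receptor modifiers, Mfng and Rfng, fringe glycosyltransferases, had log2 fold changes of -0.06 and 0.19 (edgeR adjusted p = 0.857 and 0.418). The gamma-secretase subunit Ncstn stood at 0.05. The RBPJ co-factors Hdac1 and Snw1 stood at -0.04 and -0.09, in a list with 4 positive and 8 negative members. The genes of the Groucho family list had 4 positive and 1 negative estimates and a median of 0.25. Among them Aes stood at 0.28 (edgeR adjusted p = 0.393) and Tle1 at 0.25 (edgeR adjusted p = 0.306). From a list of receptor regulators, Nedd4 and Dtx3 stood at -0.14 and 0.02.

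Of the other Hes family genes, Hes2 had no read in any library, and Hes3 and Hes7 had 2 and 8 reads over the 5 NG2 libraries, against 8 and 12 reads over the 5 GFAP libraries. The tested relatives Bhlhe40 and Helt had log2 fold changes of -0.41 and 0.60 (edgeR adjusted p = 0.607 and 0.660). Without NG2 replicate 5 these were -0.72 and 0.06, and without GFAP replicate 2 they were -0.18 and 0.84, none of them past the threshold.

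**Figure D5:**
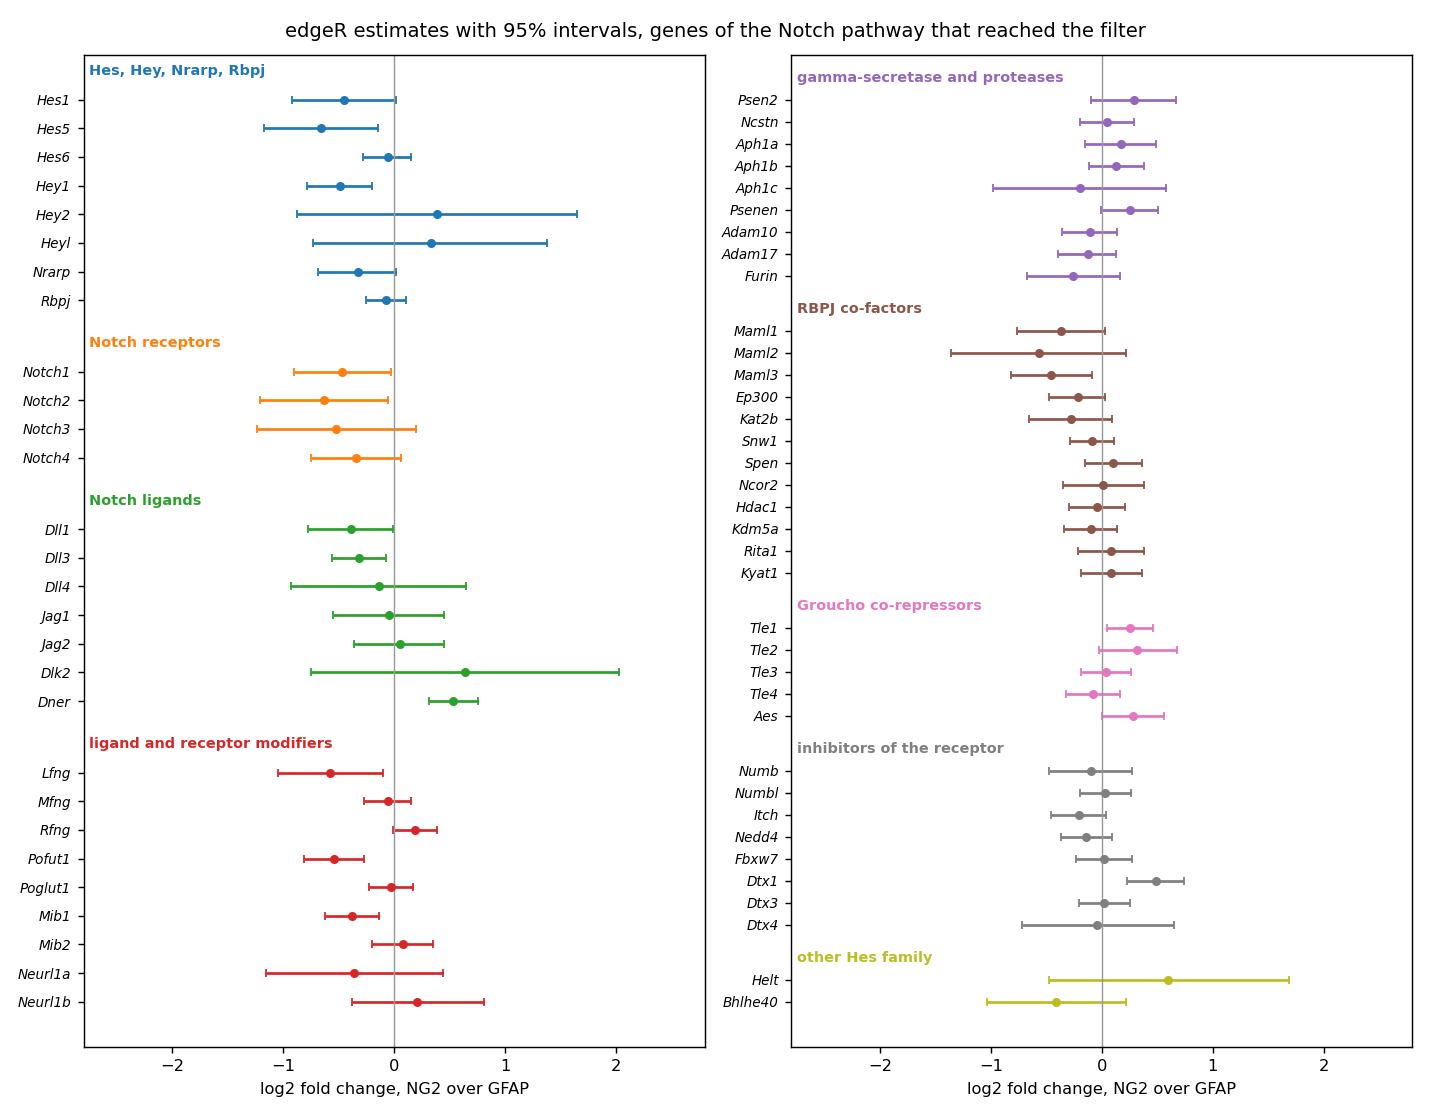
Log2 fold changes, NG2 over GFAP, with 95% intervals from edgeR for the 8 genes (top left) and for other tested genes of the Notch pathway, grouped by role. The 4 receptors all lie left of 0, and Dner is the ligand with the clearest positive estimate, at 0.53.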

How the data were processed

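The deposited table held unnormalised read counts per gene, and the submitters' processing notes name HISAT2, featureCounts 1.5.0-p3 and the build GRCm38.p6. Per the labels' protocols, RNA was amplified with SMARTer chemistry and enriched for poly(A), and no molecular identifiers are named, so counts of low genes carry more error than their depth gives. The strand setting is not given in the sources used here. The deposited FPKM values equalled the count over gene length and 1 constant per library. Per the file headers, the authors' comparison in the same table gives a log2 fold change with its p-value, raw and adjusted, and a mean signal for each group, which was not used, and its tool is not given in the sources used here.

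Counts were tested with edgeR 4.0.16 (R 4.3.3), quasi-likelihood, with TMM scaling, its default expression filter, and Benjamini-Hochberg adjustment across the 16187 genes kept, at a threshold of 0.05. All 8 genes reached the filter. The scripts were tested on simulated data. Correlations used log2(CPM + 1) and 100000 permutations, two-sided (scipy 1.17.1). Promoters came from RefSeq tables, and gene positions were the same in GENCODE M21 for 8 of 8 genes. Alternatives were 3 other scalings, 2 other filters, DESeq2 1.42.0, voom with sample weights (limma 3.58.1), limma-trend on FPKM with pseudocounts of 1 and 0.1, leaving out each library and a pair of libraries, a replicate block, and a GC and length offset.

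The 8 genes and all lists were chosen with earlier results of these data known. Named by rule were the 8 genes, up to 2 genes of highest mean CPM in each Notch list, and the 3 most similar genes of each member. Values of 1 list gene, which stays in the list counts, are not reported here.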

Additional observations from a re-analysis of the deposited data

Results flagged for a closer look

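Within each group of 5 libraries, the highest and lowest values were checked for a gap to the nearest other library above Dixon's 95% limit, in 34 checks. Chance flags about 1 in 20 groups, and 7 values were found. In NG2 replicate 4, Nrarp stood at 16.2 CPM, against 10.9 to 12.1 CPM in the other NG2 libraries. In NG2 replicate 5, 18903 genes had a read, against 22988 to 24444 in the other NG2 libraries. GFAP replicate 2 accounted for 4 values. There Hes1 stood at 31.4 CPM, against 14.8 to 17.2 CPM in the other GFAP libraries, and Hes6 at 576 CPM, against 481 to 497 CPM. The radial glia markers summed to 2069 CPM there, against 1452 to 1605 CPM, and the G1/S genes to 2240.5 CPM, against 1143 to 1284 CPM. The endothelial markers summed to 21.8 CPM in GFAP replicate 1, against 2.66 to 7.35 CPM in the other GFAP libraries.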

How the results depend on the processing

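With all 10 libraries, edgeR called 12 genes higher and 12 lower in NG2, 0 of the 8 genes and 0 of 57 other pathway genes. Calls were 58 higher and 37 lower without an expression filter, 210 and 133 with DESeq2, and 584 and 857 with voom. limma-trend on FPKM called 3 lower with either pseudocount, and the GC and length offset called 24 higher. With 1 library left out the counts ran from 3 to 70 higher and from 0 to 47 lower, the most without NG2 replicate 5. Without GFAP replicate 2 and NG2 replicate 5 together they were 109 and 154. Replicate numbers did not pair the libraries (r of deviations from -0.092 to 0.077 over 5 same-numbered pairs, and 1 library matched its own number best), and a replicate block gave 1 higher and 0 lower, with 0 of the 8 genes called, Dner at an adjusted p of 0.224, and Cspg4 no longer called, at a log2 fold change of 2.66 and an adjusted p of 0.0574. Of the 8 genes, 1 was called with voom (Hey1) and 1 without both libraries (Hes5), and 0 in each fit that left out 1 library. Of the other pathway genes, 3 were called with DESeq2, 9 with voom, 3 without both libraries, and 1, Dner, with no filter, the 5 CPM filter or the GC and length offset. With 1 library left out that count ran from 0 to 2, with Dll1 and Dner called without NG2 replicate 5.

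Hes1, Hes5, Hes6 and Hey1 kept their direction in 22 of 22 alternatives. Their log2 fold changes ran from -0.53 to -0.19, from -0.88 to -0.42, from -0.12 to -0.00 and from -0.54 to -0.32, and their adjusted p from 0.219 to 0.656, 0.0484 to 0.502, 0.588 to 0.999 and 0.0356 to 0.321. The sign turned for Nrarp with voom (0.02), for Rbpj with the GC and length offset (0.09), and for Hey2 without both libraries (-0.30). Leaving out 1 library gave -0.18 to 0.65 for Hey2 and -0.01 to 0.58 for Heyl. Other named pathway genes also turned. Voom gave Ncstn -0.01, Hdac1 0.08 and Dtx3 -0.09, library size scaling gave Dtx3 -0.03, leaving out both libraries gave Ncstn -0.01, Hdac1 0.08 and Dtx3 -0.08, and the GC and length offset gave Hdac1 0.04, Snw1 0.04 and Nedd4 0.01. Over the fits that left out 1 library or both, Mfng ran from -0.08 to 0.02, Hdac1 ran from -0.09 to 0.08, Ncstn ran from -0.03 to 0.12 and Dtx3 ran from -0.08 to 0.07. The cause was not tested. Hey2 and Heyl are not in the 5 CPM filter. The median of all genes moved by 0.08 with the GC and length offset and by -0.04 with library size scaling. Relative to those shifts Hdac1, Snw1 and Nedd4 stayed negative with the offset and Dtx3 stayed positive with library size scaling. Hey2 and Heyl had 3 to 40 and 6 to 50 reads per library.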
